A study of Mus musculus with 8 samples.

Results

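The outer surface and the oral cavity of the mandibular arch, the embryonic tissue of the lower jaw, are lined by epithelium, and 36 genes known from surface and oral epithelium were followed across 8 Affymetrix arrays of whole arches. They were listed by symbol, with earlier results of these arrays known, and each stands for the probe set annotated to that symbol alone with the highest mean over all arrays. All 36 were measured, among 18194 genes represented in the same way. The arches came from mouse embryos of the C57BL/6J strain at embryonic day 11.5, with sex not determined, and both groups were homozygous for a floxed allele of Alk5, also called Tgfbr1, which encodes a TGF-beta type I receptor. The 4 control arches carried Alk5 fl/fl with no Cre driver named. The 4 mutant arches were Wnt1-Cre;Alk5 fl/fl, in which Wnt1-Cre removes the receptor in the cranial neural crest. The study asked how loss of TGF-beta signalling in neural crest cells disturbs their interaction with muscle precursors, and the epithelium is another tissue of the same arch outside the crest. The labels do not say whether arrays of a group came from separate litters, and a p-value here therefore reflects the scatter among these arrays only, technical scatter included.

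Epithelium of the arch comes from ectoderm and endoderm, not from the neural crest, and is therefore outside the Wnt1-Cre lineage. Epithelial cells are held together by cadherins, desmosomes and tight junctions, and their cytoskeleton is built from keratins, of which a type I and a type II chain pair up. The transcription factor p63 (Trp63) sets up the basal layer, grainyhead-like factors maintain junction genes, and the Esrp proteins direct epithelial splicing. Snail and Zeb factors repress many epithelial genes in mesenchyme by binding E-boxes, short DNA words that read CAGGTG. In whole arches, fewer epithelial cells and less RNA per epithelial cell cannot be told apart.

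Many promoters of the genes hold that word, a feature the choice of genes did not use. The RefSeq table (GRCm38.p6) holds 22 promoter windows for 20 of the 36 genes, each spanning 250 bases before to 50 after an annotated start, and the other 16 genes have none in it. The word CAGGTG, read on either strand, was in 16 of the 22 windows (72.7%), against 20.2% of all 32851 windows in the table. It was in 22.8% of the 20859 windows whose GC content lay within the range of the epithelial ones, 48.3% to 75.3%. The windows of 8 starts held at least 2 matches, and the 100 bases before each of these starts are printed 5′ to 3′ along the gene's strand, with the matches in capitals (CACCTG is the same word on the opposite strand), because they show how closely some matches lie to one another and to the start (matches outside these 100 bases are not shown):
Ap1m2 (chr9:21312334-21312433, - strand): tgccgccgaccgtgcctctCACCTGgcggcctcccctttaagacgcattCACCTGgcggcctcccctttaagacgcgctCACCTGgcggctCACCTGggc
Cldn4 (chr5:134946935-134947034, - strand): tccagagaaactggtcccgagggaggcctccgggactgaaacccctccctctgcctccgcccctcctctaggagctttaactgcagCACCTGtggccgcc
Cldn6 (chr17:23679265-23679364, + strand): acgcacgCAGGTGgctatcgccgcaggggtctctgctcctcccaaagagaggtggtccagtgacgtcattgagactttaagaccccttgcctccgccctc
Cldn7 (chr11:69965321-69965420, + strand): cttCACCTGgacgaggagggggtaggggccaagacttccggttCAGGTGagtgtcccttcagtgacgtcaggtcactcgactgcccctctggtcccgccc
Epcam (chr17:87635879-87635978, + strand): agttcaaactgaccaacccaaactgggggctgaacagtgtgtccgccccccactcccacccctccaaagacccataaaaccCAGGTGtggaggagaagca
Grhl3 (chr4:135573633-135573732, - strand): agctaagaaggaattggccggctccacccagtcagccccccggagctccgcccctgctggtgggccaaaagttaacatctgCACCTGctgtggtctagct
Rab25 (chr3:88548280-88548379, - strand): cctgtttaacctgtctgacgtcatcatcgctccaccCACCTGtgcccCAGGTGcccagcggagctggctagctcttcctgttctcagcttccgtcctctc
Spint2 (chr7:29281978-29282077, - strand): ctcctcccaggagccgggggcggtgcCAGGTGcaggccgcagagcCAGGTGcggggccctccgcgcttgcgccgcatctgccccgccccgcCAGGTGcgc
Ap1m2, the epithelium-specific adaptor subunit of clathrin vesicles, had 4 matches, at -81, -51, -21 and -9 bases from its start, and Spint2, a protease inhibitor, had 3, at -74, -55 and -9. Of 27 matches in all, 22 began before a start, 17 of them within 100 bases of it, and 5 in the 50 bases after. In all, 8 words were searched on both strands, and the E-box was picked for display after their shares were seen. The grainyhead word AACCNGTT was in 9.09% of the epithelial windows (Rab25 and Sfn) and in 2.09% of all windows. Its forms AACCGGTT and ACCGGTT, which overlap it and each other, were in 0.146% and 1.02% of all windows and in 0 of the 22. Words of the ETS family of factors were in 36.4% (TTCCTG) and 22.7% (GGAAGT) of them, against 30.6% and 23.8% of all. TATAAA was in 4.55% against 13.6%, and CCAAT in 27.3% against 37.4%. A match is a string of letters and shows no binding. No match means only that the letters are not in that window.

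**Figure D1:**
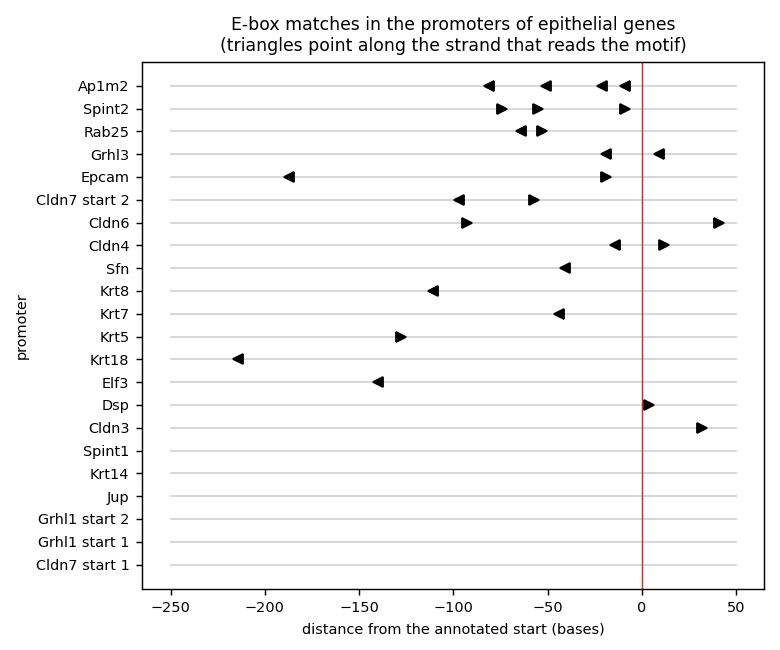
Positions of the E-box word in 22 RefSeq promoter windows of 20 epithelial genes, in bases from the annotated start (red line), with 1 row per window and a triangle per match. Of the 27 matches, 22 lie in the 250 bases before the start, 17 of these in the nearest 100, and 5 in the 50 bases after it, and 6 windows hold none.

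None of the 36 epithelial genes passed the threshold between mutant and control arches. Of 36, 0 rose and 0 fell at an adjusted p under 0.05 (limma, adjusted by Benjamini-Hochberg over all 18194 genes), where 2.14% of all genes passed, 0.835% higher and 1.31% lower in the mutants. At an unadjusted p under 0.05 there were 3 of 36 (8.33%) against 13.5% of all genes. The median log2 fold change, mutant minus control, was -0.12 over the 36 and -0.01 over all genes, and 26 of 36 lay below 0 against 52.0% of all genes. The 95% interval of the change lay within a 2-fold change either way (1 on the log2 scale) for 35 of 36 genes, all but Krt14 (97.2%, against 97.4% of all genes). It lay within 0.5 either way for 18 of 36 (50%), against 80.9% of all genes. The groups did not overlap on 1 gene, Ehf (2.78%, against 10.3% of all genes). The smallest adjusted p was 0.261 (Krt17), and it lay between 0.0619 and 0.583 over 16 alternative analyses, in which 0 of the genes passed. An alternative limited to genes above the median level held only 23 of the 36.

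Most of the lowest values lay on 1 array. Mutant replicate 3 was the lowest of the 8 arrays on 25 of the 36 genes, whereas control 1 was lowest on 4 and each other array on 0 to 2. The median difference of the 36 genes from their control means was -0.43 on mutant 3, against -0.09 to 0.02 on the other mutants and -0.17 to 0.08 on the controls. That array also had the narrowest spread of all probe sets, with an SD of 2.42 against 2.52 to 2.56. By mean level, its median difference over all genes was 0.19 under 6, 0.21 at 6 to 7, -0.17 at 7 to 8, -0.38 at 8 to 9, -0.33 at 9 to 10 and -0.16 over 10. Over the 4, 1, 14, 3, 6 and 8 epithelial genes in those ranges it was -0.22, 0.40, -0.29, -0.45, -0.75 and -0.54. Without mutant 3 the median change of the 36 was -0.02 and 19 of 36 lay below 0. How far the array's spread bears on the epithelial values was not tested.

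**Figure D2:**
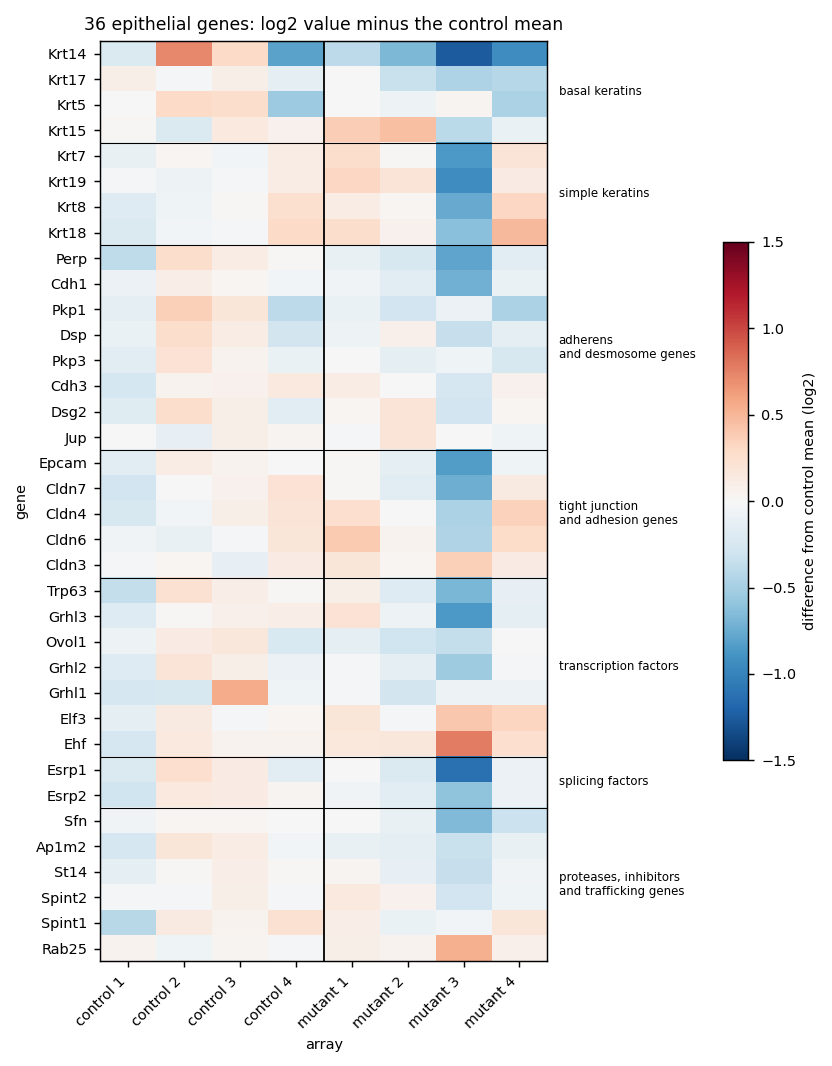
Difference of each array's log2 value from the mean of the 4 controls for the 36 genes (rows, by role and then by change), red for higher and blue for lower. The column of mutant replicate 3 is blue over most rows (median -0.43), and Krt14 and Krt5 are also low in control replicate 4.

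**Figure D3:**
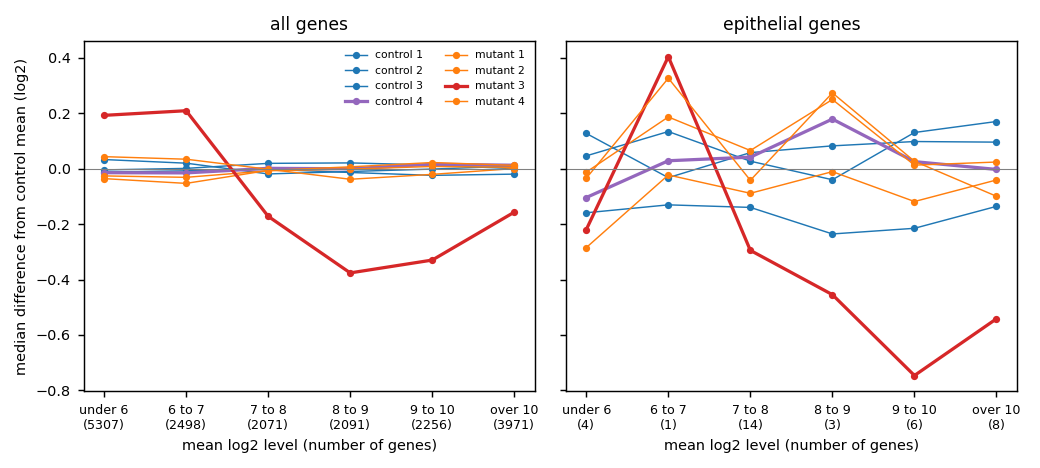
Median log2 difference from the control mean by level of the gene, for all genes and for the epithelial genes, with a line per array and the number of genes in each range under the axis. Over all genes, mutant 3 (red) goes from 0.19 under a level of 6 to -0.38 at 8 to 9 while the other 7 arrays stay near 0, and the epithelial ranges hold 1 to 14 genes each.

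Keratins of the basal layer included the largest difference. Krt14, the type I chain of basal cells, read 9.87, 10.80, 10.37 and 9.28 in controls 1 to 4 and 9.68, 9.41, 8.83 and 9.14 in mutants 1 to 4. The 4 mutants and control 4 were the lowest arrays, so that control 4 (9.28) lay inside the mutant range. The difference was -0.81 ± 0.303 (SE; 95% interval -1.49 to -0.13, adjusted p = 0.267), a 1.76-fold lower level that did not pass. A second bright probe set of the gene differed by -0.85 (adjusted p = 0.314 over all probe sets in limma), and a further, dim set was at 0.01. By two-sided exact permutation, p was 0.0857 for the brightest set and 0.0571 for the second bright one. The 70 relabelings can give no less than 0.0286. The brightest set carries the suffix that Affymetrix gives to sets whose probes may also match other transcripts. Krt5, the type II partner of Krt14, read 9.21, 9.49, 9.46 and 8.66 in controls 1 to 4 and 9.20, 9.13, 9.25 and 8.73 in mutants 1 to 4. The low arrays were again control 4 and mutant 4, and the difference was -0.13 ± 0.189 (SE; 95% interval -0.55 to 0.30, adjusted p = 0.821). Krt17, a keratin of epithelial appendages and of stressed epithelium, read 5.23, 5.11, 5.23 and 5.01 in controls 1 to 4 and 5.15, 4.82, 4.69 and 4.72 in mutants 1 to 4. Mutant 1 lay among the controls and the other mutants below them, and the difference was -0.30 ± 0.111 (SE; 95% interval -0.55 to -0.05, adjusted p = 0.261). Its control mean of 5.15 was below the median of every array (6.28 to 6.42). Krt15, another basal type I keratin, read 10.36, 10.12, 10.48 and 10.40 in controls 1 to 4 and 10.70, 10.79, 9.94 and 10.24 in mutants 1 to 4, with mutants 1 and 2 above all other arrays and mutant 3 below, and differed by 0.08 ± 0.18 (SE; 95% interval -0.33 to 0.48, adjusted p = 0.892).

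The 4 keratins of simple epithelium lay between -0.10 and 0.05, and none passed. Krt18, the type I chain of simple epithelia, read 9.47, 9.65, 9.67 and 9.97 in controls 1 to 4 and 9.96, 9.76, 9.06 and 10.18 in mutants 1 to 4. Mutant 3 was the lowest array and mutant 4 the highest, and the difference was 0.05 ± 0.217 (SE; 95% interval -0.44 to 0.53, adjusted p = 0.946). Krt8, its type II partner, ranged from 9.56 to 9.99 in controls and from 8.99 to 10.06 in mutants. The difference of Krt8 was -0.08 ± 0.207 (SE; 95% interval -0.54 to 0.39, adjusted p = 0.904), and its 2 further probe sets differed by -0.06 and -0.09. Krt19 differed by -0.08 ± 0.237 (SE; 95% interval -0.61 to 0.45, adjusted p = 0.916) and Krt7 by -0.10 ± 0.218 (SE; 95% interval -0.59 to 0.39, adjusted p = 0.892). Krt19 read 6.99 on mutant 3, against 8.04 to 8.23 on the other mutants and 7.84 to 8.03 on the controls.

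With mutant 3 left out, the simple keratins lay above 0 and the basal ones other than Krt15 below. Without mutant 3, all 4 simple keratins were above 0 (Krt18 0.27, Krt19 0.20, Krt7 0.16 and Krt8 0.15), and Krt14 (-0.67), Krt17 (-0.25) and Krt5 (-0.18) below, while the remaining basal keratin, Krt15, was at 0.24. None passed (smallest adjusted p = 0.163, Krt19, limma). Control 4 also stood with the mutants on several of these genes. When mutant 3 and control 4 were both left out, a choice made after the values were seen, Krt14 was at -0.93 (adjusted p = 0.0694), Krt5 at -0.36, Krt18 at 0.37 and Krt19 at 0.24 (adjusted p = 0.082), with 0 of 36 genes past the threshold. At an unadjusted p under 0.05 that fit had 9 of the 36 and 20.2% of all genes. The difference between basal and simple keratins was not itself tested. Basal and simple keratin genes lie side by side in the genome. In RefSeq, Krt15, Krt19, Krt14 and Krt17 follow each other on chromosome 11 with 0 or 1 other protein-coding genes between neighbours, and Krt8 and Krt18 are adjacent on chromosome 15.

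**Figure D4:**
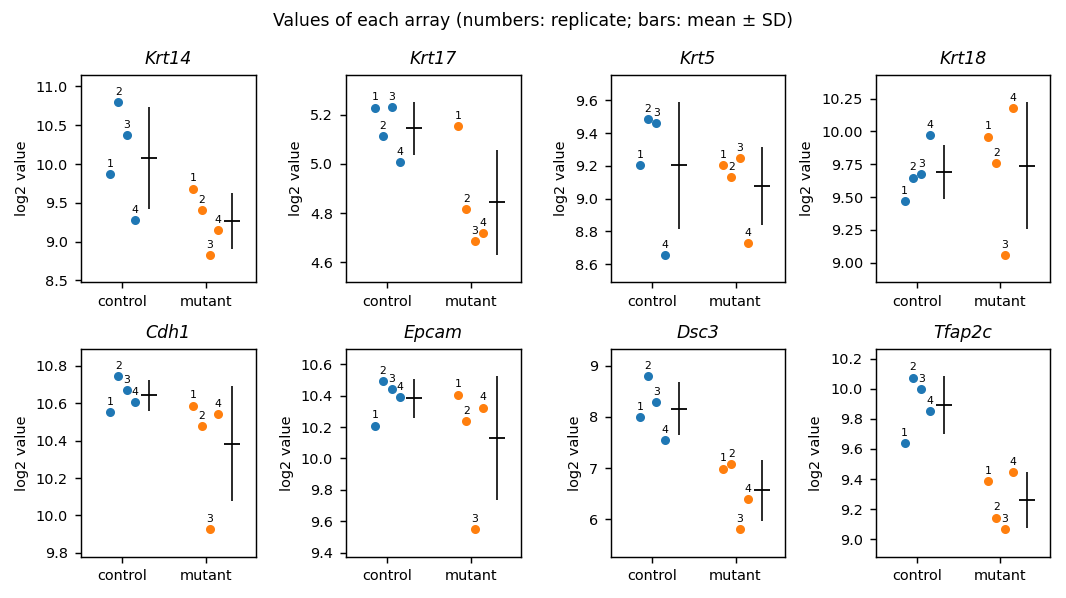
Log2 value of each array (points, numbered by replicate) with mean ± SD (bars) for 6 of the epithelial genes and for Dsc3 and Tfap2c. Axes do not start at 0, and Krt14 is low in control 4 and in the 4 mutants. Cdh1 and Epcam are lowest on mutant 3, and Cdh1 is also just below the controls on mutants 2 and 4. Dsc3 and Tfap2c do not overlap between the groups.

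Of 8 adherens junction and desmosome genes, 0 passed, and their median was -0.11. Cdh1, which encodes E-cadherin, read 10.55, 10.74, 10.67 and 10.61 in controls 1 to 4 and 10.59, 10.48, 9.93 and 10.54 in mutants 1 to 4. Mutant 1 lay within the control range, mutants 2 and 4 just below it and mutant 3 well below, with a difference of -0.26 ± 0.139 (SE; 95% interval -0.57 to 0.05, adjusted p = 0.476), or -0.11 without mutant 3. Cdh3 (P-cadherin), which lies next to Cdh1 with no protein-coding gene between them, was at -0.01 with an interval of -0.27 to 0.24. Dsp, the desmoplakin that ties keratin filaments to desmosomes, read 11.43, 11.79, 11.64 and 11.26 in controls 1 to 4 and 11.46, 11.61, 11.19 and 11.40 in mutants 1 to 4. Its groups overlapped, with a difference of -0.12 ± 0.13 (SE; 95% interval -0.41 to 0.17, adjusted p = 0.753), or -0.04 without mutant 3. Perp, a desmosome protein under the control of p63, read 10.24, 10.88, 10.73 and 10.64 in controls 1 to 4 and 10.52, 10.38, 9.83 and 10.47 in mutants 1 to 4. Control 1 lay below mutants 1, 2 and 4, and the difference was -0.32 ± 0.176 (SE; 95% interval -0.72 to 0.07, adjusted p = 0.488), or -0.17 without mutant 3. The plakophilin genes Pkp1 and Pkp3 were at -0.24 and -0.11, plakoglobin (Jup) at 0.03 and the desmoglein gene Dsg2 at -0.01. For Dsg2, Pkp3, Jup, Cdh3 and Dsp the interval lay within 0.5 either way.

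Tight junction and adhesion genes had the median nearest 0 among the 7 role groups (0.03 over 5). Epcam, the pan-epithelial adhesion molecule, read 10.21, 10.49, 10.44 and 10.39 in controls 1 to 4 and 10.41, 10.24, 9.55 and 10.32 in mutants 1 to 4. Mutant 3 was again the low array, and the difference was -0.25 ± 0.173 (SE; 95% interval -0.64 to 0.13, adjusted p = 0.598), or -0.06 without it. A dimmer probe set of Epcam was at 0.07. The claudin genes Cldn4 and Cldn6 were at 0.03 and 0.07, and Cldn7 at -0.18 with an interval of -0.60 to 0.23. Cldn3, the neighbour of Cldn4, read 7.33, 7.39, 7.24 and 7.48 in controls 1 to 4 and 7.55, 7.39, 7.71 and 7.48 in mutants 1 to 4. Mutants 1 and 3 were above all controls and mutants 2 and 4 within or level with them, for a difference of 0.17 ± 0.0889 (SE; 95% interval -0.03 to 0.37, adjusted p = 0.459), and its 3 further probe sets were at 0.08, 0.16 and 0.26. Without mutant 3 the changes were 0.19 for Cldn4, 0.24 for Cldn6, 0.11 for Cldn3 and -0.0014 for Cldn7.

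Regulators of epithelial identity did not pass either. Trp63, the p63 gene, read 10.03, 10.62, 10.49 and 10.41 in controls 1 to 4 and 10.48, 10.20, 9.71 and 10.26 in mutants 1 to 4. The groups overlapped, and the difference was -0.23 ± 0.173 (SE; 95% interval -0.61 to 0.16, adjusted p = 0.651), or -0.07 without mutant 3. Further probe sets of Trp63, all dimmer, were at 0.11, -0.09 and 0.19, and the mean of its sets changed by -0.0035. The grainyhead-like genes Grhl1, Grhl2 and Grhl3 were at -0.12, -0.18 and -0.21, and without mutant 3 at -0.13, -0.06 and 0.00080. The 3 further probe sets of Grhl2, all dimmer, were at 0.18, 0.03 and 0.22. Ovol1, a zinc finger gene that promotes epithelial differentiation, read 5.30, 5.50, 5.54 and 5.15 in controls 1 to 4 and 5.22, 5.07, 5.01 and 5.38 in mutants 1 to 4. Mutants 2 and 3 were the lowest arrays, and the difference was -0.20 ± 0.114 (SE; 95% interval -0.45 to 0.06, adjusted p = 0.515). The ETS family genes Elf3 and Ehf had values above 0. Elf3, an epithelial activator, read 6.71, 6.98, 6.81 and 6.87 in controls 1 to 4 and 7.03, 6.82, 7.25 and 7.17 in mutants 1 to 4. Mutants 1, 3 and 4 lay above all controls and mutant 2 among them, with a difference of 0.22 ± 0.104 (SE; 95% interval -0.01 to 0.46, adjusted p = 0.396). Ehf read 4.80, 5.20, 5.11 and 5.11 in controls 1 to 4 and 5.21, 5.23, 5.82 and 5.31 in mutants 1 to 4. Every mutant array of Ehf was above every control, with mutant 3 the highest, for a difference of 0.34 ± 0.145 (SE; 95% interval 0.01 to 0.66, adjusted p = 0.351), or 0.20 without mutant 3. The 3 other probe sets of Ehf, all dimmer, were at -0.03, -0.07 and -0.06, and the level of the brightest was below every array's median. That brightest set carries the same suffix as the brightest set of Krt14, for probes that may also match other transcripts.

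The splicing factor genes Esrp1 and Esrp2 were both below 0. Esrp1 read 9.39, 9.86, 9.74 and 9.45 in controls 1 to 4 and 9.61, 9.39, 8.49 and 9.52 in mutants 1 to 4. Mutant 3 was lower than every other array by 0.90 or more, and the difference was -0.35 ± 0.231 (SE; 95% interval -0.87 to 0.16, adjusted p = 0.575), or -0.10 without mutant 3. Esrp2 read 7.65, 8.09, 8.07 and 7.98 in controls 1 to 4 and 7.89, 7.79, 7.34 and 7.85 in mutants 1 to 4. It showed the same low array, with a difference of -0.23 ± 0.142 (SE; 95% interval -0.55 to 0.09, adjusted p = 0.551), or -0.10 without mutant 3.

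Of 6 genes of proteases, their inhibitors, trafficking and keratinocyte signalling, 0 passed, with changes from -0.27 (Sfn) to 0.19 (Rab25). Spint2, whose promoter holds 3 E-box words, read 10.001, 10.002, 10.12 and 10.02 in controls 1 to 4 and 10.18, 10.10, 9.75 and 9.97 in mutants 1 to 4. Mutant 3 was the lowest array and mutant 1 the highest, and the difference was -0.04 ± 0.0971 (SE; 95% interval -0.26 to 0.18, adjusted p = 0.903). Spint1, the other Kunitz-type inhibitor, was at 0.04 and St14, the matriptase gene that both inhibit, at -0.12 with an interval of -0.33 to 0.09, or -0.05 without mutant 3. Ap1m2, whose promoter holds 4 of the words, read 8.22, 8.66, 8.58 and 8.43 in controls 1 to 4 and 8.37, 8.32, 8.14 and 8.36 in mutants 1 to 4. It differed by -0.18 ± 0.104 (SE; 95% interval -0.41 to 0.06, adjusted p = 0.528), and the groups overlapped through control 1. Rab25, a GTPase of apical recycling, read 7.29, 7.17, 7.28 and 7.21 in controls 1 to 4 and 7.33, 7.29, 7.77 and 7.31 in mutants 1 to 4. Mutant 3 stood well above the other arrays, and the difference was 0.19 ± 0.111 (SE; 95% interval -0.06 to 0.43, adjusted p = 0.533), or 0.07 without mutant 3. Sfn, the 14-3-3 sigma gene of keratinocytes, read 7.32, 7.39, 7.39 and 7.37 in controls 1 to 4 and 7.38, 7.25, 6.70 and 7.04 in mutants 1 to 4. Mutants 3 and 4 lay below the controls, mutant 2 just below and mutant 1 among them, with a difference of -0.27 ± 0.132 (SE; 95% interval -0.57 to 0.02, adjusted p = 0.416), or -0.14 without mutant 3.

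**Figure D5:**
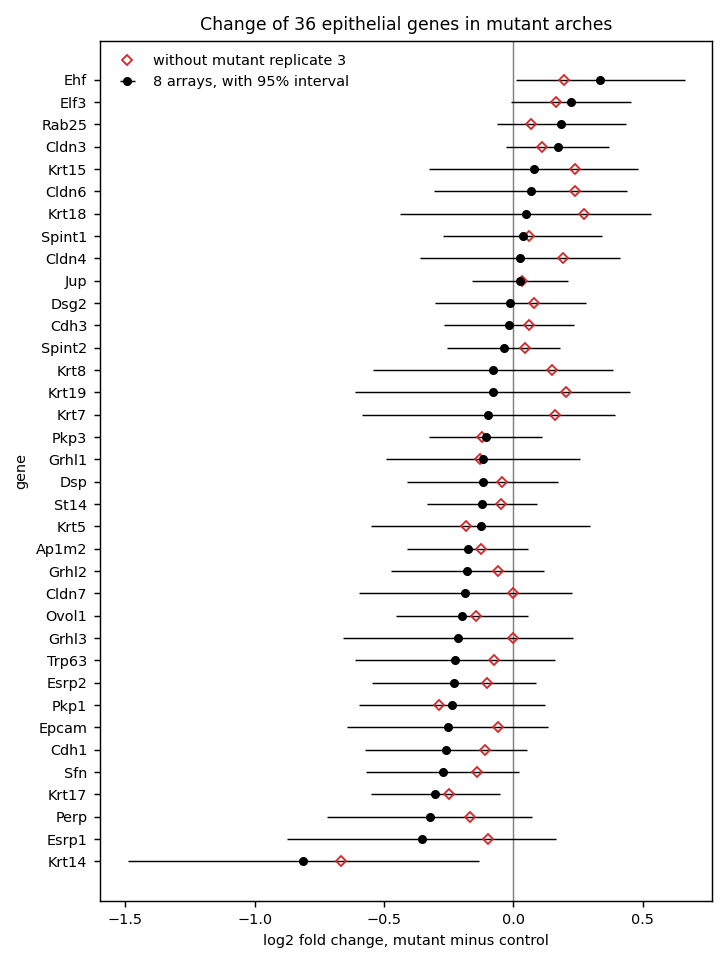
Log2 fold change of the 36 epithelial genes, mutant minus control, with 95% intervals over 8 arrays (black) and the value without mutant replicate 3 (red diamonds). Intervals of 33 genes include 0, and leaving out mutant 3 moves the median from -0.12 to -0.02.

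Other genes of epithelium, in 5 lists, held 2 that passed. Of 56 listed, 51 were measured, 0 rose and 2 fell, where 0.835% of all genes rose and 1.31% fell. The median over the 51 was -0.08. Dsc3, a desmocollin of basal epithelial desmosomes, read 7.999, 8.79, 8.29 and 7.55 in controls 1 to 4 and 6.99, 7.07, 5.81 and 6.39 in mutants 1 to 4. The groups did not overlap, and it fell by 1.59 ± 0.317 on the log2 scale (SE; 95% interval -2.30 to -0.88, limma adjusted p = 0.0379). Leaving out control 1, 2 or 3, or mutant 1 or 4, ended the call, with an adjusted p of at most 0.134. Over the mean of its probe sets the change was -0.75 (adjusted p = 0.0526), the dimmer set being at 0.09. Tfap2c, an AP-2 transcription factor of surface ectoderm that neural crest cells can also express, read 9.64, 10.07, 9.9997 and 9.85 in controls 1 to 4 and 9.39, 9.14, 9.07 and 9.45 in mutants 1 to 4. All mutants were below all controls, and it fell by 0.63 ± 0.12 (SE; interval -0.90 to -0.36, adjusted p = 0.0324), with its further probe sets at -0.49 and -0.53. Its call ended when control 2 or 3, or mutant 1, 2 or 4, was left out (adjusted p of at most 0.128), and over the mean of its probe sets (adjusted p = 0.081). By list, junction and polarity genes had 1 fall among 14, with all 14 below 0 (median -0.15) where 52.0% of all genes lay below 0. The mean of this list was lowest on mutant 3, and all its genes but Tjp3 and Ppl were lowest there. For Ocln, Marveld2, Marveld3, F11r, Cgn, Pkp2, Evpl, Llgl2 and Pard6b, mutant 3 was the only mutant below all controls. How many of the 14 lie below 0 without that array was not counted. Cldn1 (-1.08, adjusted p = 0.0829) had no overlap between groups but did not pass. Its further probe sets, all dimmer, were at 0.13, -0.17 and -0.20. In this list the groups did not overlap on 3 of 14 genes, all lower (21.4%, against 10.3% of all genes). Regulators had 1 fall among 8 (median -0.16), with Sox2 at -0.41 (adjusted p = 0.319). The 9 genes of attachment to the basement membrane (median 0.01, smallest adjusted p = 0.285, Frem2), the 13 signals made by epithelium (median -0.08, smallest adjusted p = 0.304, Wnt10a) and the 7 membrane and protease genes (median -0.07, smallest adjusted p = 0.416, Erbb3) had 0 past the threshold. Among the signals Shh was at -0.44 (adjusted p = 0.388) and Fgf8 at 0.34 (adjusted p = 0.692).

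Mesenchymal genes, read beside the epithelial ones, had 0 of 12 past the threshold and a median of -0.19, with Prrx1 nearest (-0.34, adjusted p = 0.0753). At an unadjusted p under 0.05 (limma) there were 5 of the 12 (41.7%), against 13.5% of all genes. The groups did not overlap on 3, all lower in the mutants (25%, against 10.3% of all genes). Below 0 lay 10 of the 12, against 52.0% of all genes. Of the repressors that read the E-box word, Zeb2 was at -0.73 (adjusted p = 0.0892), Snai1 at -0.21, Snai2 at -0.12 and Zeb1 at 0.12, and none passed. Among markers of other cells, macrophage genes stood out: of 8, 7 rose, with a median of 1.20, and their mean level was 7.28 to 7.49 in controls and 8.22 to 8.70 in mutants. Of the 7, Ptprc (0.68, adjusted p = 0.0353) no longer passed under 9 of 15 alternatives. These included dropping any single array other than control 3 or mutant 3, with an adjusted p of at most 0.132. Their part in the epithelial values was not tested. Myl7, a heart muscle gene, was the 1 of 6 heart and mesothelium genes to rise (0.43 ± 0.0848, SE, adjusted p = 0.0353), and it lost the call in 10 of 15 alternatives, among them without any 1 array other than mutant 3. None passed among 4 genes of periderm, 5 of keratinizing epidermis, 6 of pharyngeal endoderm and thyroid, 6 of yolk sac endoderm, 8 of endothelium, 5 of erythroid cells and 5 of muscle precursors. Their median changes were, in that order, 0.10, -0.04, -0.15, 0.14, -0.00, -0.13 and -0.01. The genes with the smallest p in those lists were Krt23 (adjusted p = 0.509), Krt10 (0.238), Pax1 (0.113), Rbp4 (0.117), Cldn5 (0.319), Epb42 (0.212) and Myf5 (0.657). As a description of the labelled tissue, the mean over the 12 mesenchymal genes was 11.30 to 11.47 in controls and 11.13 to 11.36 in mutants. Levels of different probe sets also reflect how well each probe binds, so the label was not tested by them.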

How the data were processed

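RNA of 8 mouse mandibular arches (4 control, 4 mutant) was read on Affymetrix arrays. The values were deposited by the authors as log2 expression per probe set, made with RMA per the submitters' processing notes, which name no version. RMA gives all arrays a like distribution and compresses differences of dim probe sets. Of 45101 probe sets, 34958 had 1 gene symbol in the platform annotation, 932 several and 9211 none. Sets without exactly 1 symbol were left out, among them 1 shared by Krt17 and Krt14. The brightest set of each of 18194 genes entered a limma 3.58.1 fit under R 4.3.3 (lmFit, then eBayes) of mutant against control with no covariate, and Benjamini-Hochberg adjustment ran over all genes. "Rose" and "fell" mean an adjusted p under 0.05. Arrays give no read depth, so their number limits the precision.

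The genes and lists were chosen with earlier results of these data known. Per-array values are given for the 12 genes with the smallest p and the brightest gene of each role (19 genes), and for Krt5, added after its values were seen. From other lists, genes past the threshold and otherwise the 1 with the smallest p are named, and Cldn1, Sox2, Shh, Fgf8, Ptprc and the E-box repressors were added after their values were seen. On simulated arrays (18194 genes, 5 runs, 200 changed) the fit recovered 52.8% of changes of 0.5, 90.8% of 1, 94% of -1 and 99.6% of 2, with 4.20% of calls false. The changed genes were drawn at random from all genes, with independent scatter. These rates do not measure recovery for the 36, of which 50% had an interval within 0.5, against 80.9% of all genes. Alternatives were the replicate number as a block, averaging the probe sets of a gene, brighter genes only, a further quantile normalization, a variance trend with a robust prior, array weights, all probe sets, leaving out each array, and 1 added after seeing the data (2 arrays left out).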

Additional observations from a re-analysis of the deposited data

Results flagged for a closer look

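In each group of 4 arrays, the highest or lowest array was set against its nearest neighbour by Dixon's ratio for 38 genes, the 36 epithelial ones with Dsc3 and Tfap2c, in 76 groups. Chance marks about 1 in 20 such groups, and 5 were marked. Of these, 4 fell on mutant replicate 3. Krt19 read 6.99 there, against 8.04 on the next mutant, and Cdh1 9.93 against 10.48. Ehf read 5.82, above the next mutant at 5.31, and Rab25 read 7.77, above 7.33. The other was Spint2 on control replicate 3, at 10.12 against 10.02, a difference of small size. For comparison, the median difference of mutant 3 from the control mean was 0.19 over all genes with a mean level under 6, where Ehf lies, -0.17 at 7 to 8, where Krt19 and Rab25 lie, and -0.16 over 10, where Cdh1 lies. Rab25 was thus high on an array on which genes of its level were low at the median. The part of that array in these values was not tested.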

How the results depend on the processing

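Of the 36 epithelial genes, 0 passed in either direction under each of the 16 alternatives, and the median change stayed between -0.17 and -0.01. The alternative limited to genes above the median level held only 23 of the 36, and its median (-0.13) is over those. The median change was -0.02 without mutant 3 and -0.01 without mutant 3 and control 4, an alternative chosen after seeing the data. Over all genes, the number past the threshold (390) was 620 after a further quantile normalization, 1356 with array weights, 250 over all probe sets, 1126 without both arrays, and 104 to 618 without 1 array. The count of falls among the other epithelial genes (2) was 1 with the replicate number as a block, 0 over the mean of probe sets, 1 over genes above the median level, 1 over all probe sets, 3 with the variance trend and robust prior, 3 with array weights, and 0 to 2 without 1 array. The count of rises (0) became 1 (Fgf8) without both arrays. Of the 19 named genes, 16 kept their sign throughout. Leaving out 1 array moved Krt15 between -0.046 and 0.24 and Krt18 between -0.099 and 0.27. Krt15 was below 0 without mutant 1 (-0.017) or mutant 2 (-0.046), and Krt18 without control 1 (-0.026), mutant 1 (-0.026) or mutant 4 (-0.099). Spint2 was at 0.027 after a further quantile normalization, 0.026 with array weights, 0.041 without both arrays and -0.097 to 0.046 without 1 array, above 0 without mutant 3 alone among these. The cause of these shifts was not tested.

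The labels do not say whether the shared replicate numbers pair the samples. Same-numbered control and mutant arrays correlated at 0.03, 0.00, -0.12 and 0.41 in their deviations from the group means. Differently numbered ones lay between -0.33 and 0.28. So few correlations can neither show nor exclude a pairing. With the number as a block, 293 genes passed, 0 of them among the 36, and Tfap2c lost its call (adjusted p = 0.0889).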
